A study of Paralichthys olivaceus with 6 samples.

Results

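The matrix proteases examined here are 9 unigenes of the Japanese flounder gonad transcriptome whose symbols begin with *mmp*, *adam* or *adamts*, out of 52474 unigenes in all. A unigene is an assembled transcript sequence. The symbols come from the study's list of 1225 differentially expressed unigenes, of which 611 carry a symbol, and the list was drawn up from fold changes and *p*-values between the same sterile and fertile fish. The members were thus selected on their measured difference between sterile and fertile gonads, which is given here as a description. Counts of test calls on that difference are printed with the share or number of all unigenes called, and nothing is read from them. The 9 members are 6 *mmp* unigenes, 1 *adam* unigene and 2 *adamts* unigenes. A search for *timp*, the symbol of the tissue inhibitors of metalloproteinases, gave 0 unigenes, so no classical inhibitor of these enzymes could be described. The RefSeq gene table of the flounder (assembly ASM2471397v2) holds 18 *mmp*, 14 *adam*, 8 *adamts* and 2 *timp* symbols. Of the 9 member symbols, 7 occur in that table as a symbol or a synonym, and *mmp9* and *adamts15* do not. Those 9 are thus a part of the family, and relatives outside the list have no symbol in the sources used here. The member nearest to the list's minimum of a 2-fold difference was *adamts6*, with a log2 fold change of -1.13 in the fit used here, and members just outside could not be named.

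The groups were gonads of 3 sterile and 3 fertile double haploid (DH) females, all 5 years old and all offspring of 1 wild female by mitogynogenesis, in which a single maternal chromosome set is doubled. Sterile fish had produced no eggs and their ovaries are labelled stage III, whereas fertile fish had produced viable progeny and their ovaries are labelled stage V. Fertility and ovarian stage cannot be told apart in this design. Each library is taken as 1 fish, although the library protocol speaks of pooled RNA. Of the sterile libraries, S1 carries the code of a labelled sample, and S4 and S5 were taken as sterile from the letter in their column names only. The column names of S4 and S5 also end in "shang", whereas those of S1 and of the fertile libraries end in "qian", and the meaning of these words is not given. Steps from S1 to S4 or S5 therefore cannot be told apart from whatever these words mark. Since only sterile libraries end in "shang", the difference between sterile and fertile gonads is in part tied to these words too.

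Matrix metalloproteinases (MMPs) are zinc enzymes that cut collagens, laminins and other proteins of the extracellular matrix. They are made as inactive proenzymes, are switched on when the propeptide is removed, and are held in check by TIMPs. ADAMs are membrane-bound relatives that shed the outer parts of cell surface proteins, and ADAMTS enzymes are secreted relatives with thrombospondin repeats that cut proteoglycans and other matrix components. In the ovary such enzymes remodel the follicle wall during growth, ovulation and atresia, the breakdown of follicles that fail to mature, and in medaka, another teleost, MMPs take part in follicle rupture.

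Total counts ranged from 25024469 to 35719683 per library. Levels are given as CPM, the count divided by the total count of its library and scaled by a constant. They compare libraries for 1 unigene, not unigenes with each other, because transcript lengths were not used. Fold changes are sterile over fertile from edgeR with TMM normalization. TMM scaling moved the median log2 ratio of all unigenes by 0.11, to 0.0066 against -0.11 with CPM, so that sterile levels lie lower against fertile ones in CPM than with TMM. In whole-gonad RNA, fewer cells of a type and less RNA per cell cannot be told apart. Markers of the gonad were present in every library, among them *fshr*, the receptor for follicle-stimulating hormone, at 1.88 to 3.52 CPM in sterile and 4.34 to 9.30 CPM in fertile fish. Some rested on few reads. The gonadal marker *sycp3* had 3, 4 and 7 counts and *spo11* 3, 6 and 1 counts in S1, S4 and S5. The fertile fish had 10 to 18 counts of *sycp3* and 10 to 14 of *spo11*. Markers of erythrocytes and of exocrine pancreas were highest in S4 and S5. The beta-globin unigene *ba1l* had 0.120, 7.33 and 3.25 CPM in S1, S4 and S5 and 0 to 0.241 CPM in the fertile fish, and 4 pancreatic enzyme unigenes summed to 2.96, 8.48 and 11.7 CPM in S1, S4 and S5 and to 0.654 to 1.78 CPM in the fertile fish.

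The gelatinase *mmp2* and the enzyme known to activate it, *mmp14b*, were both higher in sterile gonads. MMP2 (gelatinase A, or type IV collagenase) degrades basement membrane collagen, and MMP14 is a membrane-anchored MMP that cleaves pro-MMP2 at the cell surface. *mmp2* (Contig13660) had 52.9, 57.7 and 121 CPM in S1, S4 and S5, against 24.6, 12.8 and 29.6 CPM in F1, F2 and F3. The groups did not overlap, S5 stood above the other sterile fish, and F2 was the lowest of all. Its mean was 77.0 ± 37.7 CPM in sterile and 22.3 ± 8.64 CPM in fertile gonads (SD, n = 3 each). The log2 fold change was 1.93 (standard error 0.39). *mmp14b* (c17751_g8_i2_530_7954) was counted far less often, with 51, 74 and 138 counts in S1, S4 and S5 and 21, 13 and 55 counts in F1, F2 and F3. These are 2.04, 2.07 and 4.08 CPM in the sterile and 0.813, 0.448 and 1.92 CPM in the fertile fish. The groups were apart by a narrow margin only, since the lowest sterile level was 1.06 times the highest fertile level, that of F3. The log2 fold change of *mmp14b* was 1.5 (standard error 0.49). It was 2.25 without F3 and 1.0 without S5.

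The second gelatinase and the collagenase showed larger differences. MMP9 (gelatinase B) cuts denatured collagen and basement membrane collagen, and in mammals it is stored in neutrophil granules and made by macrophages. *mmp9* (Contig25112) had 51.4, 71.1 and 125 CPM in S1, S4 and S5, against 32.2, 8.99 and 21.5 CPM in F1, F2 and F3. Again S5 was highest and F2 lowest, and the means were 82.6 ± 38.3 CPM in sterile and 20.9 ± 11.6 CPM in fertile gonads (SD, n = 3 each). MMP13 (collagenase 3) opens the triple helix of fibrillar collagens. *mmp13b* (Contig23946) had 10.3, 12.7 and 27.4 CPM in S1, S4 and S5, against 6.62, 0.241 and 4.37 CPM in F1, F2 and F3. In F2 this unigene was nearly silent, with 7 counts against 171 in F1 and 125 in F3, so the fertile fish differed among themselves by 27.5-fold, more than the 4.49-fold ratio of the sterile to the fertile mean. The log2 fold changes were 2.13 (standard error 0.46) for *mmp9* and 2.33 (standard error 0.73) for *mmp13b*. The *mmp13b* value was 1.77 without F2, 3.02 without F1 and 1.71 without S5.

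*adam8a* and *mmp17a* completed the group on the side of *mmp2*. ADAM8 is a membrane-bound protease that mammalian leukocytes carry. *adam8a* (Contig27811) had 33.6, 34.8 and 82.6 CPM in S1, S4 and S5, against 21.3, 2.69 and 22.2 CPM in F1, F2 and F3. Its pattern was that of *mmp13b*, with a high S5 and an F2 that lay 7.92-fold below F1 and 8.25-fold below F3. The log2 fold change was 1.86 (standard error 0.65), and it was 1.36 without F2 and 1.23 without S5. MMP17 is an MMP that a lipid anchor holds in the cell membrane. *mmp17a* (Contig22119) had 6.55, 4.84 and 6.20 CPM in S1, S4 and S5, against 3.06, 2.03 and 2.90 CPM in F1, F2 and F3. It had the tightest groups of the 6 *mmp2*-side unigenes, with 5.87 ± 0.904 CPM in sterile and 2.66 ± 0.554 CPM in fertile gonads (SD, n = 3 each), and S5 did not stand out. Its log2 fold change of 1.25 (standard error 0.19) was the smallest of the 6 and had the smallest error, and it stayed between 1.1 and 1.38 whichever fish was left out.

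The other 3 members went the opposite way. MMP23 is anchored in the membrane at its amino end and is known in mammals from reproductive tissues, the ovary included. *mmp23bb* (Contig4867) had 3.08, 1.60 and 3.04 CPM in S1, S4 and S5, against 5.85, 8.75 and 5.17 CPM in F1, F2 and F3. The groups did not overlap, and F2, the lowest fertile fish for the 6 genes above, was the highest here. The log2 fold change was -1.26 (standard error 0.29), and it was -0.98 without F2 and -1.0 without S4. ADAMTS6 is a secreted protease known from mouse heart development. *adamts6* (Contig10901) had 0.679, 0.756 and 0.739 CPM in S1, S4 and S5, against 1.32, 1.86 and 1.99 CPM in F1, F2 and F3. The 3 sterile fish were nearly alike, at 0.725 ± 0.0401 CPM, while the fertile fish had 1.72 ± 0.358 CPM (SD, n = 3 each), with a log2 fold change of -1.13 (standard error 0.24). ADAMTS15 cuts proteoglycans such as versican. *adamts15* (c9252_g1_i1_297_5506) had 3, 2 and 2 counts in S1, S4 and S5 and 3, 15 and 10 counts in F1, F2 and F3. It did not pass the low-count filter, its groups overlapped because F1 had 0.116 CPM and S1 0.120 CPM, and the main fit gave no fold change for it.

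**Figure D1:**
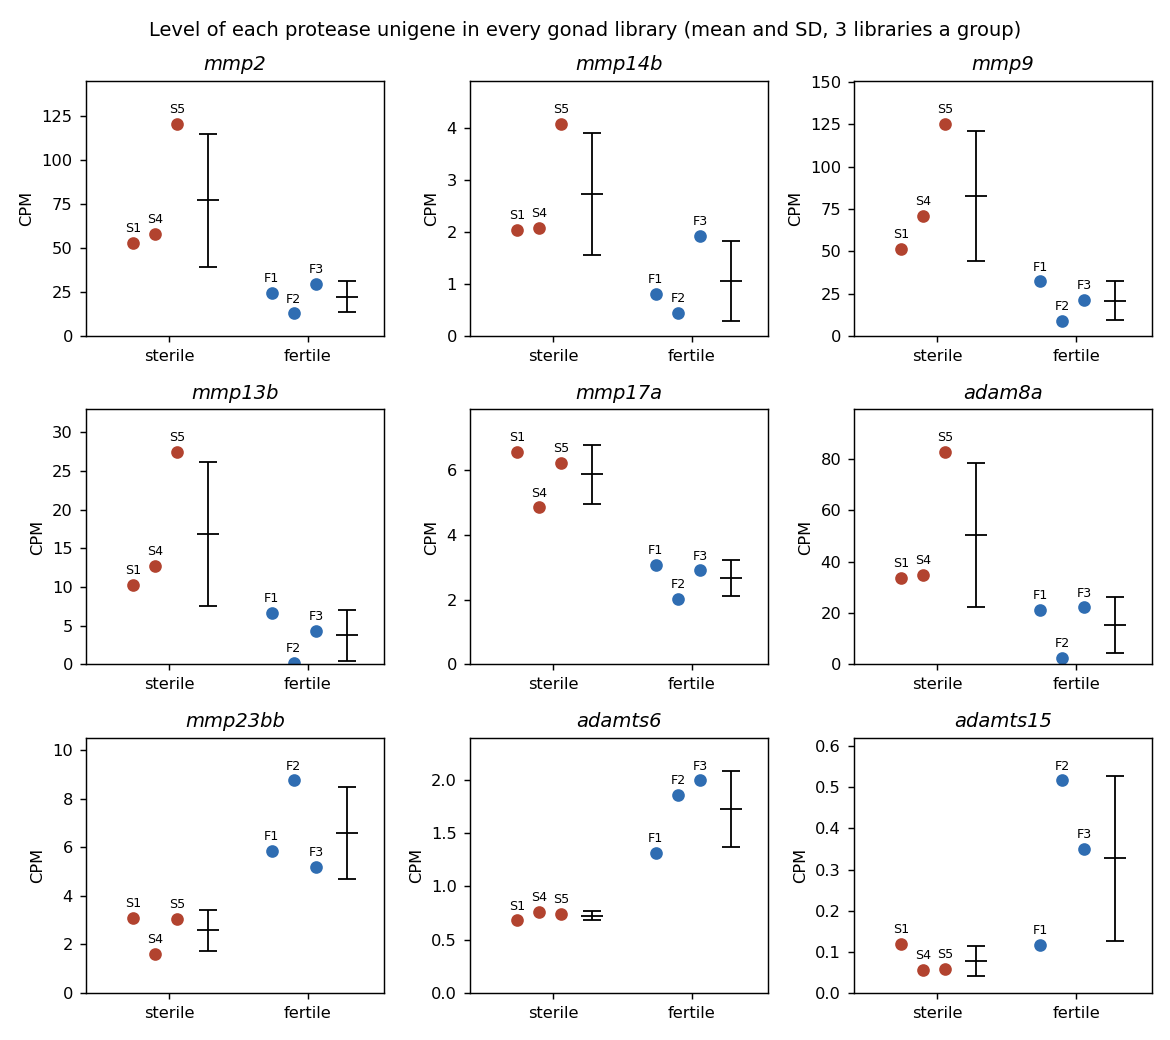
Level in CPM (vertical axis, from 0, a scale per panel) of each of the 9 protease unigenes in the sterile libraries S1, S4 and S5 and the fertile libraries F1, F2 and F3. Points are libraries and the bar beside them is the mean with its SD (n = 3); the top 6 panels show the unigenes higher in sterile gonads, with F2 lowest in each, and the bottom 3 panels show *mmp23bb*, *adamts6* and *adamts15*.

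Together, 8 of the 9 members passed the low-count filter. Their log2 fold changes lay between 1.25 and 2.33 for the 6 unigenes higher in sterile gonads and at -1.26 and -1.13 for the 2 lower ones, with a median of 1.68, where the median of all 35787 tested unigenes was 0.0099 and their 10th and 90th percentiles were -0.36 and 0.45. The list that supplied the members admits only differences above 2-fold, so this distance from the bulk was fixed by the choice. A unigene was called where its adjusted *p* lay under 0.05 and its difference exceeded 2-fold. The quasi-likelihood test in edgeR called 0 of the 8, while it called 0.137% of all tested unigenes, 0.0559% as higher and 0.081% as lower in sterile gonads. The other rules given here kept the 2-fold minimum. A raw *p* below 0.05 together with that minimum gave 8 members (2.96% of all unigenes). DESeq2 gave 5 (0.824%), the exact test of edgeR 5 (1.49%) and limma-voom 0 (0.0671%). An adjusted *p* below 0.1 gave 1 (0.374%), and the fit with no low-count filter gave 1 (0.152%). The quasi-likelihood count was 0 again without F1 (0.259% of all unigenes called), F2 (0.108%), F3 (0.192%), S1 (0.141%), S4 (0.0914%) or S5 (0.241%). *adamts15* was tested too with no low-count filter and without F1, S1, S4 or S5, so those counts are out of 9. In CPM the sterile and fertile fish did not overlap in any of the 8, with 6 above (5.36% of all unigenes) and 2 below (19.4%). With TMM-scaled CPM the same holds for all 8, and the shares over all unigenes are 11.2% above and 10.7% below. None of these counts is evidence about the members, since the rule used the same contrast.

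**Figure D2:**
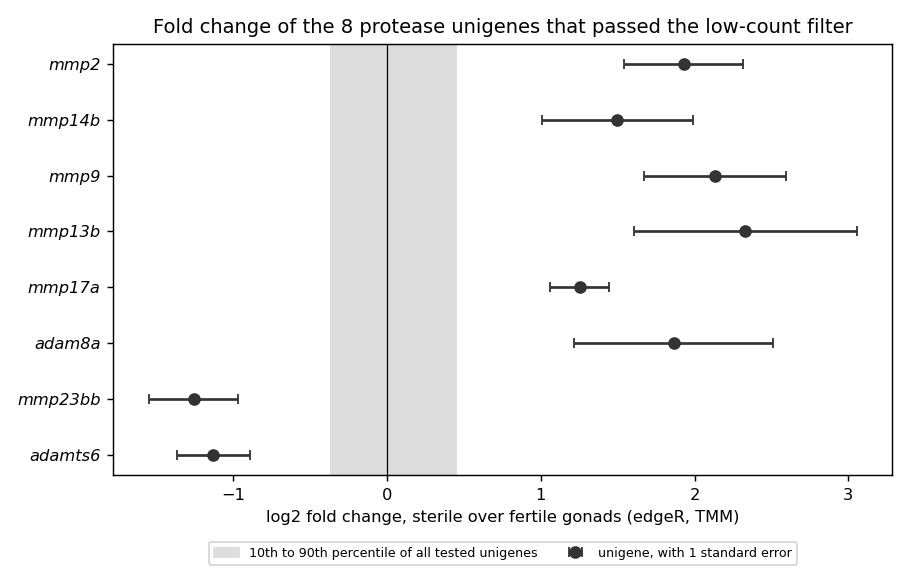
Log2 fold change, sterile over fertile gonads, of the 8 protease unigenes that passed the low-count filter (points, with 1 standard error from edgeR), with the 10th to 90th percentile of all 35787 tested unigenes as a grey band. The 6 unigenes from *mmp2* to *adam8a* lie between 1.25 and 2.33, *mmp23bb* and *adamts6* lie at -1.26 and -1.13, and all 8 lie outside the band because the list admits no smaller difference.

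The size of the difference varied with the sterile fish used, whereas its sign was fixed by groups that do not overlap. S1 is the only sterile library whose column name ends in "qian", as those of the fertile libraries do. With S1 as the only sterile fish, the log2 fold change was 1.29 for *mmp2*, 1.34 for *mmp9*, 1.51 for *mmp13b*, 0.98 for *mmp14b*, 1.34 for *mmp17a* and 1.2 for *adam8a*, and it was -1.07 for *mmp23bb* and -1.30 for *adamts6*. S1 had 0.120 CPM of *ba1l*, within the range of the fertile fish, but its pancreatic sum of 2.96 CPM lay above the 0.654 to 1.78 CPM of the fertile fish. These values were smaller than those from all fish for 6 of the 8, the exceptions being *mmp17a* and *adamts6*.

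The fish of a group also differed among themselves, and the rule did not ask for any order of the fish within a group, although a low fertile fish or a high sterile fish also widens the difference that chose the members. F2 was the lowest fertile fish for all 6 unigenes on the side of *mmp2*, a pattern that 43.7% of all tested unigenes shared. S5 was the highest sterile fish for 5 of the 6, *mmp17a* being the exception, against 22.8% of all unigenes. Both held for 5 of 6, against 8.25% of all unigenes. The members are not independent of each other, and both features widen the difference that chose them, so nothing is read from these counts. Neither *mmp23bb* nor *adamts6* had either feature. The step between sterile fish was alike in the 5 unigenes, with S5 at 2.0 times S1 for *mmp14b*, 2.28 times for *mmp2*, 2.44 times for *mmp9*, 2.46 times for *adam8a* and 2.67 times for *mmp13b*. S4 lay much closer to S1, at 1.0 to 1.4 times its level. The step between fertile fish was not alike. F1 was 1.93 times F2 for *mmp2* and 1.82 times for *mmp14b*, but 3.58 times for *mmp9*, 7.92 times for *adam8a* and 27.5 times for *mmp13b*. The low F2 was thus deepest for the collagenase and for *adam8a*.

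**Figure D3:**
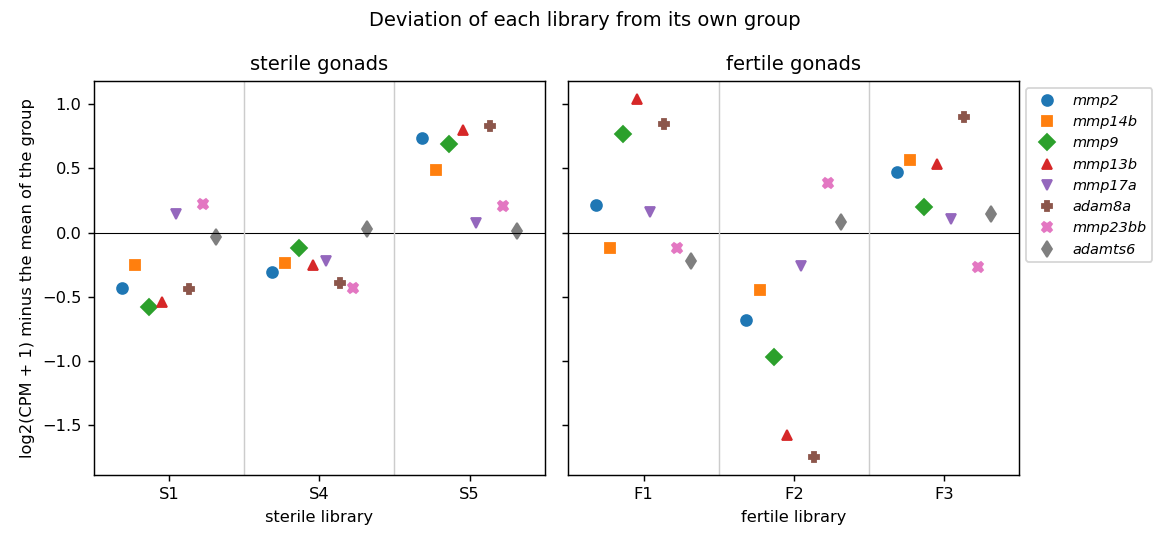
Deviation of log2(CPM + 1) from the mean of the library's own group (vertical axis) for the 8 tested protease unigenes, in the sterile libraries on the left and the fertile libraries on the right, with 1 marker shape per unigene. In S5, *mmp2*, *mmp14b*, *mmp9*, *mmp13b* and *adam8a* lie between 0.49 and 0.83 above their group mean, and in F2 *mmp13b* and *adam8a* lie lowest, at -1.58 and -1.75, while *mmp23bb* lies at 0.39.

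Likeness to *mmp2* was measured over the 6 libraries as the root mean square difference of log2(CPM + 1) after each unigene was centred on its own mean, so that a smaller value means a closer profile. Among 35786 unigenes ranked by it, *mmp9* was 23rd with a difference of 0.326, *mmp14b* 72nd with 0.473, *mmp13b* 112th with 0.545, *adam8a* 115th with 0.549 and *mmp17a* 140th with 0.589. The median over all unigenes was 1.05, and the closest 5% reached to 0.861. At the other end, *adamts6* was at rank 34980 with 1.30 and *mmp23bb* at rank 35638 with 1.55. The group difference is part of this measure, so the ranks describe the rule as well. When each unigene was centred within its own group, a measure added after seeing the data, *mmp14b* was 69th with 0.215 and *mmp9* 223rd with 0.294, both within the closest 5%, which reached to 0.417. *mmp17a* (0.427), *mmp13b* (0.502) and *adam8a* (0.539) were outside it, and the last of these was at the median of all unigenes, 0.538. A larger step in the same direction also counts as a difference here. *mmp13b* and *adam8a* deviated from their group means in the direction of *mmp2* in every library. Their steps were larger, as in F2, at -1.58 and -1.75 against -0.68 for *mmp2*. *adamts6*, with small steps, came out at 0.528. The ranks therefore do not show that *mmp13b* and *adam8a* depart from *mmp2* in direction. The order of the fish divided the unigenes in another way, but it rested partly on small steps. *mmp14b* and *adam8a* had the order of *mmp2* in both groups (S1, S4, S5 and F2, F1, F3, from low to high). Of all tested unigenes, 1.99% had both orders. *mmp9* and *mmp13b* had it in the sterile fish only, with F1 above F3 in the fertile fish. The sterile order was found in 10.4% of all tested unigenes. S4 was only 1.09 times S1 for *mmp2*, 1.02 times for *mmp14b* and 1.04 times for *adam8a*. For *adam8a*, F1 had 21.3 CPM and F3 22.2 CPM. No grouping is therefore read from the order.

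The named unigenes closest to *mmp2* over 6 libraries, other than members, were *Abca1* (a cholesterol exporter; Contig28267, difference 0.136), *LOC100003937* (0.147), *LOC564077* (0.151 and 0.186 for its 2 unigenes) and *arl4ab*, a small GTPase (0.153). *Abca1* had 29.7, 39.8 and 79.4 CPM in S1, S4 and S5, against 17.3, 6.85 and 16.9 CPM in F1, F2 and F3, with the same low F2 and high S5. Closest to *adamts6* were *zgc:123339* (0.0566), *cyp17a2*, a 17-alpha-hydroxylase (0.0933), *kdm5bb*, a histone demethylase (0.106), *lgi1b* (0.125) and *klf11b*, a transcription factor (0.129). Only *klf11b* among these reached 2 CPM in any library, and on this scale unigenes of low level all lie near each other. *mmp23bb* was not close to *adamts6*, at 0.383 and a rank of 24992.

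From the study's list, 2 other inhibitor symbols were chosen, *cst3* and *papln*, and they did not share 1 direction. They are no survey of the inhibitors on that list. Cystatin C, the product of *cst3*, inhibits cysteine proteases such as cathepsins. *cst3* (Contig28653) had 547, 686 and 1325 CPM in S1, S4 and S5, against 366, 199 and 367 CPM in F1, F2 and F3, with a log2 fold change of 1.60 (standard error 0.36). It repeated the low F2 and high S5 of *mmp2* and was the 4th closest of all unigenes to *mmp2* with centring within groups, at 0.106. Papilin, a matrix glycoprotein with Kunitz inhibitor domains that is related to the ADAMTS enzymes, went the other way. *papln* (Contig4132) had 0.559, 0.336 and 0.473 CPM in S1, S4 and S5, against 1.47, 2.13 and 0.874 CPM in F1, F2 and F3, with a log2 fold change of -1.62 (standard error 0.38), and its F2 was highest, as for *mmp23bb*. A second *papln* unigene, too rare to be tested, had 0.0799 to 0.118 CPM in sterile and 0.210 to 0.551 CPM in fertile fish. Of the 2 tested, the quasi-likelihood test in edgeR called 0 (0.137% of all unigenes). A raw *p* below 0.05 with a difference above 2-fold was found for 2 (2.96%). DESeq2 called 1 (0.824%), the exact test 2 (1.49%) and limma-voom 0 (0.0671%).

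Other proteases, from a list of 11 symbols, had 17 unigenes, of which 12 were tested. Of these, 10 lay above and 2 below a log2 fold change of 0, the median being 1.34. The quasi-likelihood test of edgeR called 0 of the 12 (0.137% of all unigenes). All 12 had a raw *p* below 0.05 with a difference above 2-fold (2.96%). DESeq2 called 7 (0.824%), the exact test 9 (1.49%) and limma-voom 0 (0.0671%). These unigenes were listed for the same difference, so such counts are no evidence about them, and the same holds for the other lists. The 2 unigenes of *enpep*, a membrane aminopeptidase, had the largest differences, 3.38 and 2.96. In both, however, S1 lay below F1, though above F2 and F3. The first (Contig23983) had 0.799, 3.5 and 4.96 CPM in S1, S4 and S5, against 0.813, 0.0689 and 0.140 CPM in F1, F2 and F3, so that the groups overlapped. *fap* (Contig24802), fibroblast activation protein, a serine protease of stromal cells, had 0.799, 0.70 and 1.30 CPM in S1, S4 and S5, against 0.155, 0.0689 and 0.245 CPM in F1, F2 and F3, without overlap and with a log2 fold change of 2.68 (standard error 0.46). This unigene rested on 4, 2 and 7 counts in F1, F2 and F3, and the other tested *fap* unigene (Contig24803) was at 1.12 (standard error 0.32). A rare unigene of *ctsd*, the aspartic protease cathepsin D, was lower in sterile gonads, at -2.05 (standard error 0.53). It had 1, 9 and 6 counts in S1, S4 and S5 and 31, 17 and 15 counts in F1, F2 and F3. F2 was lowest and S5 highest in 7 of the 12, against 8.25% of all unigenes. For unigenes listed as higher in sterile gonads, a low F2 or a high S5 widens the listed difference, so nothing is read from this count.

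In a chosen list of matrix proteins, most of the tested unigenes lay on the opposite side to *mmp2*. Of 12 unigenes from 8 symbols, 9 were tested, and 7 lay below and 2 above a log2 fold change of 0, the median being -1.22. The 7 were unigenes of *fbln2*, *col4a1*, *col4a2* and *nid1a* only. Among the untested unigenes, that of *col27a1b* was higher in sterile gonads and the 2 of *thbs1* were lower. The quasi-likelihood test in edgeR called 3 of the 9, 1 each of *nid1a*, *fbln2* and *col4a1*, all lower in sterile gonads, where 0.081% of all unigenes were called in that direction. All 9 had a raw *p* below 0.05 with a difference above 2-fold (2.96% of all unigenes). DESeq2 called 8 (0.824%), the exact test 8 (1.49%) and limma-voom 1 (0.0671%), so at least 2 of the 3 calls were lost with limma-voom. *nid1a* (Contig7180), which encodes the basement membrane linker nidogen, had 11.3, 6.97 and 12.3 CPM in S1, S4 and S5, against 37.5, 63.4 and 36 CPM in F1, F2 and F3. F2 was the highest fish here, as for *mmp23bb*. The other *col4a1* unigene (Contig1465), a chain of type IV collagen, was also lower, with 2.20, 2.10 and 2.33 CPM in S1, S4 and S5, against 5.27, 11.4 and 6.12 CPM in F1, F2 and F3. *prg4a*, which encodes the lubricating proteoglycan lubricin, was 1 of the 2 exceptions, with 1.56, 2.10 and 4.25 CPM in S1, S4 and S5, against 0.852, 0.551 and 1.29 CPM in F1, F2 and F3. The other was the laminin unigene *lama5* (Contig25976), with 0.759, 0.952 and 1.09 CPM in S1, S4 and S5, against 0.542, 0.207 and 0.734 CPM in F1, F2 and F3. Its log2 fold change was 1.05 (standard error 0.40). Both exceptions had F2 lowest and S5 highest, as for *mmp2*. All of these unigenes came from the list that chose the members, so the counts are descriptions.

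**Figure D4:**
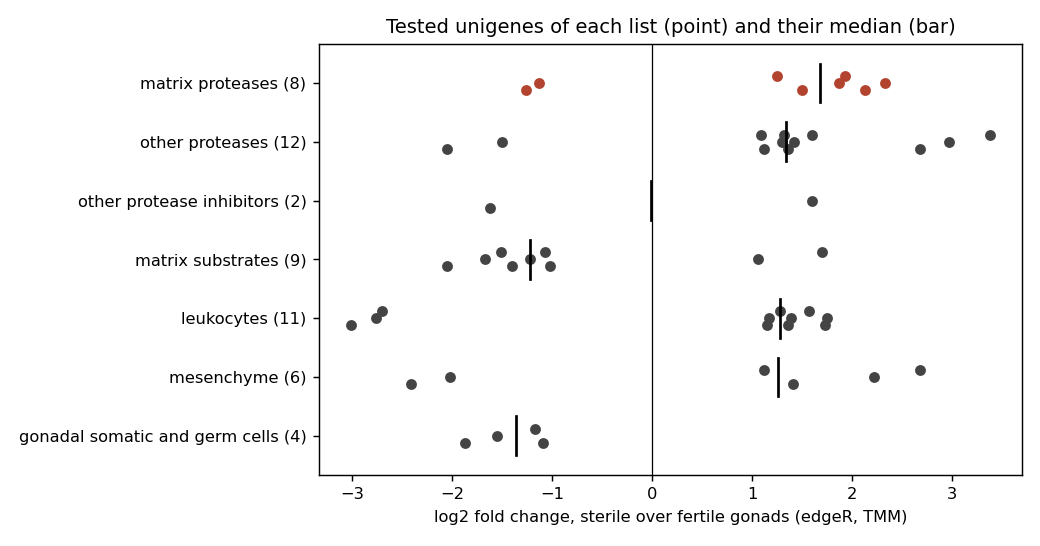
Log2 fold change, sterile over fertile gonads (edgeR), of every tested unigene in the matrix proteases and 6 other lists; points are unigenes, bars are medians, and the number tested stands in brackets. The tested *fap* unigenes are plotted under both other proteases and mesenchyme. The medians are 1.68 for the matrix proteases, 1.34 for other proteases and -1.22 for matrix substrates, and no point lies near 0 because the study's list holds only differences above 2-fold.

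Markers of leukocytes and mesenchyme were mixed in direction, some on the side of *mmp2* and some opposite, and their part in the result was not tested. These lists too were drawn from the list that chose the members, so their call counts are descriptions. The leukocyte list had 13 unigenes, of which 11 were tested, 8 above and 3 below a log2 fold change of 0, with a median of 1.28. The 3 negative ones were the unigenes of *mpx*, myeloperoxidase of granulocytes, at -3.01, -2.76 and -2.70. The first of them was the only leukocyte unigene called by the quasi-likelihood test in edgeR, which called 0.081% of all unigenes in that direction. That call was lost with limma-voom, which called 0 of the 11 (0.0671% of all unigenes). All 11 had a raw *p* below 0.05 with a difference above 2-fold (2.96%), and DESeq2 called 6 (0.824%) and the exact test 9 (1.49%). Summed over the list, the level was 20.4, 15.7 and 27.4 CPM in S1, S4 and S5 and 13.4, 18.7 and 14.6 CPM in F1, F2 and F3, so that S4 lay below F2 and F2 was the highest fertile fish. No marker was at 0 in any library. Without *mpx*, a choice made after seeing the data, the sums were 19.1, 14.8 and 26.5 CPM in the sterile and 8.29, 5.61 and 9.40 CPM in the fertile fish, so that the groups were apart, with S5 highest and F2 lowest as for *mmp2*. Every unigene left had a higher mean in sterile gonads, so this separation comes from the choice and no conclusion is drawn from it. In 7 of the 11 tested leukocyte unigenes, F2 was lowest and S5 highest, against 8.25% of all unigenes. The exceptions were the 3 *mpx* unigenes and *rac2*, the latter named after its values were seen. All 7 were listed as higher in sterile gonads, a difference that a low F2 or a high S5 widens. No conclusion is drawn from this count either. One of the 2 unigenes of *irf8* (Contig24459), a transcription factor of myeloid cells, had the largest positive log2 fold change of the list, 1.75 (standard error 0.42). It rested on 11, 14 and 18 counts in S1, S4 and S5 and 4, 2 and 6 counts in F1, F2 and F3. The other *irf8* unigene (Contig24460) had the smallest positive value, 1.15 (standard error 0.31).

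The mesenchyme list had 7 unigenes, of which 6 were tested. Of these, 4 had positive log2 fold changes, among them *fap* at 2.68 (Contig24802) and 1.12 (Contig24803). *twist1a*, a transcription factor of mesenchymal cells, was at 2.21. The *fap* unigenes also stand in the list of other proteases, so these lists overlap and are not independent. The 2 unigenes of *sfrp2*, a secreted Wnt modulator, were at -2.41 and -2.02. Summed over the list, the level was 9.03, 8.29 and 14.1 CPM in S1, S4 and S5 and 7.36, 8.23 and 6.61 CPM in F1, F2 and F3, so that F2 was the highest fertile fish here too and lay close to S4. One *fap* unigene (c12365_g3_i1_250_22319) was at 0 in F2. The quasi-likelihood test of edgeR called 0 of the 6 (0.137% of all unigenes). All 6 had a raw *p* below 0.05 with a difference above 2-fold (2.96%). DESeq2 called 5 (0.824%), the exact test 5 (1.49%) and limma-voom 0 (0.0671%). All 4 gonadal markers, *fshr*, *nr5a1b*, *sycp3* and *spo11*, lay on the side of *mmp23bb*, with log2 fold changes between -1.87 and -1.09. Of these 4, the quasi-likelihood test in edgeR called 0 (0.137% of all unigenes). All 4 had a raw *p* below 0.05 with a difference above 2-fold (2.96%). DESeq2 called 1 of them (0.824%), the exact test 2 (1.49%) and limma-voom 0 (0.0671%).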

How the data were processed

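Gonad RNA was sequenced as 101 bp paired ends, in 6 libraries. The authors cleaned the reads, built contigs with Trinity, clustered those of all libraries with CAP3, took names from tBlastx hits to zebrafish, mouse and human transcripts, and aligned reads with BWA (version 0.7.8-r455, per the processing notes). The deposited values are raw counts per unigene. The methods name Picard as the counter, the processing notes HTSeq. The treatment of strand and of reads shared by similar unigenes is unknown from these sources. Unigene identifiers matched 0 entries of the RefSeq gene table, so that no sequence was used.

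Members and lists were chosen with earlier results of these data known. All members were described, up to 4 unigenes per list with the largest log2 fold change in size, and the 5 named unigenes closest to *mmp2* and to *adamts6*; others are named as examples. Fold changes and *p*-values in the study's own list were not used.

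The counts went into edgeR 4.0.16 under R 4.3.3, with filterByExpr defaults (35787 unigenes kept), TMM factors, glmQLFit, glmQLFTest and *p*-values adjusted by Benjamini and Hochberg. Standard errors are the size of the log2 fold change over the square root of F. The code was tested on simulated data. Alternatives were other count filters (none, or a minimum of 10 per library), RLE or upper-quartile factors, DESeq2 1.42.0, the exact test, voom in limma 3.58.1, other thresholds, left-out libraries, S1 alone and pseudocounts of 0.1 and 5. Centring within groups, the order of libraries, overlap on the TMM scale and the leukocyte sum without *mpx* were added after seeing the data.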

Additional observations from a re-analysis of the deposited data

How the results depend on the processing

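The sign of the 8 tested members was fixed by groups that do not overlap and says nothing of stability. Over 111 fits of single members under other filters, scalings, tests and left-out libraries, 100 gave the call of the main analysis and in the other 11 the member was called, by DESeq2 (*mmp2*, *mmp9*, *mmp14b*, *mmp17a* and *mmp23bb*), by edgeR's exact test (*mmp2*, *mmp9*, *mmp17a*, *mmp23bb* and *adamts6*) or without a low-count filter (*mmp17a*). The count of members called was 0 in edgeR's quasi-likelihood test (0.137% of all unigenes), 5 by DESeq2 (0.824%) and 5 by the exact test (1.49%). With the 2-fold minimum kept, it was 8 at an unadjusted *p* under 0.05 (2.96%) and 1 at an adjusted *p* under 0.1 (0.374%). It was 1 without a low-count filter (0.152%). With each library left out it stayed at 0 (0.0914% to 0.259%). Without a low-count filter, and without F1, S1, S4 or S5, the count is out of 9, since *adamts15* was tested there too. Over all unigenes 49 were called, against 79 without a low-count filter, 295 by DESeq2, 533 by the exact test and 24 by limma-voom. With the 2-fold minimum kept, 1059 were called at an unadjusted *p* under 0.05 and 134 at an adjusted *p* under 0.1. With 1 library left out, 34 to 97 were called, the highest counts being 97 without F1 and 89 without S5. Of the other members, 5 were among the 5% of unigenes closest to *mmp2*, and 4 or 5 under other pseudocounts, filters, scaling or left-out libraries. With centring within groups there were 2, on either pseudocount tried. That measure leaves the group difference out by construction, and it also counts a larger step in the same direction as a difference. No paired analysis was possible on the replicate number, because only 1 replicate number is shared by columns of both groups. The sources describe no pairing of sterile with fertile fish, so a shared number is not taken to mark a pair. Counts were low for *adamts15* (2 to 15 per library), *adamts6* (17 to 57) and *mmp14b* (13 to 138), and *mmp13b* had 7 counts in F2. The largest standard errors of the log2 fold change were those of *mmp13b* (0.73) and *adam8a* (0.65), against 0.24 for *adamts6*.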
